A study of Mus musculus with 42 samples.

Results

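SOX2 peaks of wild-type (WT) cells were compared with those of CdxKO cells, which carry the genotype Cdx1/2/4-/-. The comparison took 6 chromatin immunoprecipitation sequencing (ChIP-seq) libraries of 42 in the series: 3 from WT and 3 from CdxKO cultures, each with its own peak list. Both groups were mouse embryonic stem cells of the HM1 line (strain 129) turned into epiblast-like cells with bFGF and LGK974, a blocker of WNT secretion. Both then also received CHIR99021 (CHIR), a GSK3 inhibitor that switches on the WNT pathway, and were fixed at 72 h. Further lists, 3 libraries each, took no part in choosing the sites. SOX2 lists from T/BraKO cells (T/Bra-/-) under the same treatment and from WT cells without CHIR were counted at the same sites without a test. β-catenin and LEF1 lists from WT and CdxKO cells with CHIR were tested there between the genotypes. WT and CdxKO are separate cell lines, so genotype and line cannot be told apart. The labels call the replicates biological and give them all a single experiment code, so p-values measure the spread between these samples.

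SOX2 is a high-mobility-group factor that bends DNA at short sequences and often binds beside partners, of which OCT4 in pluripotent cells is the best known. CDX1, CDX2 and CDX4 are homeodomain factors of the caudal epiblast, the tissue that builds the trunk, where they act downstream of WNT and upstream of the posterior Hox genes. β-catenin carries the WNT signal into the nucleus, where it binds DNA through TCF and LEF factors.

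A site here is a stretch covered by overlapping SOX2 peaks of the 6 libraries, taken from the 20000 peaks of each list with the best −log10 q value, the peak caller's significance. These peaks merged into 82343 regions. Of them 48 were called in all 3 WT lists and in no CdxKO list (0.0583% of regions), 790 in all 3 CdxKO lists and in no WT list (0.959%), and 1686 in all 6 lists (2.05%). They are called WT-only, CdxKO-only and shared sites below. The pattern of calls is the rule that chose them, so these counts carry no test. Another 39746 regions were called in 1 WT list alone and 26832 in 1 CdxKO list alone.

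The libraries differed in ways that touch these counts. The full lists held 1008922, 289925 and 205833 peaks in WT and 163926, 86068 and 172423 in CdxKO. Read depth is not in the lists, so its part was not tested. Overlap of the 20000 best peaks, as the shared part of all regions of both lists (Jaccard index), was 0.0612, 0.101 and 0.0992 among WT pairs and 0.26, 0.228 and 0.233 among CdxKO pairs. WT replicate 3 overlapped the CdxKO lists more (0.202, 0.21 and 0.194) than the other WT lists, and whether its label is right was not tested. WT replicates 1 and 2 also overlapped the CdxKO lists (0.0983 to 0.109) more than each other.

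The sequences under the sites come first. Each window below runs 50 bases to either side of the summit of the best-ranked peak, on the plus strand of mm10, with a CDX word (CAATAAA or CCATAAA or TAATAAA or TCATAAA, either strand) or a SOX word (CCATTGT or CCTTTGT, either strand) in capitals. Names are those of the nearest protein-coding gene. The first 7 are among the best-ranked WT-only sites that had no peak at all in the full CdxKO lists and whose window touched no annotated untranslated region.
Limk2 (chr11:3398530-3398630): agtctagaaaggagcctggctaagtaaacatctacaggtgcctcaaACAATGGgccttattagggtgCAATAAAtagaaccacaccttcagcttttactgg
Hist1h2ae (chr13:23567646-23567746): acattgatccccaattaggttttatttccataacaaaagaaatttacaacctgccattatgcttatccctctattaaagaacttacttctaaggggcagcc
Zfp704 (chr3:9449522-9449622): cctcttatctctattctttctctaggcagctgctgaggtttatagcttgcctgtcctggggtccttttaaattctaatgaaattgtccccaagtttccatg
Dut, in Fbn1 (chr2:125332817-125332917): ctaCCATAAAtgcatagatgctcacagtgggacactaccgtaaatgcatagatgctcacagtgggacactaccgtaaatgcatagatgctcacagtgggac
Irx1 (chr13:72210263-72210363): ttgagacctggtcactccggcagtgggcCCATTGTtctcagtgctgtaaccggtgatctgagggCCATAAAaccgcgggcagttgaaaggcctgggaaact
Strap (chr6:137732455-137732555): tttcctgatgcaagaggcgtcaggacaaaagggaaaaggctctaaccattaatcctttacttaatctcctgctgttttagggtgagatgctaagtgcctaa
Itga1 (chr13:115673855-115673955): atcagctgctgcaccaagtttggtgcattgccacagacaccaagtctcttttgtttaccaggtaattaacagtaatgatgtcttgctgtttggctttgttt

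The Limk2 and Irx1 windows each held a SOX word near the summit and a CDX word downstream of it, 20 and 17 bases from the summit. The window nearest Dut, inside an intron of Fbn1, repeats a stretch of sequence in tandem. In the Strap window the CDX word lay beyond the 50 bases shown. A pair of further windows is given because their sites led the comparisons below, the best-ranked WT-only site (Rbfox3) and the region of largest change among those listed in every library (Gtf3a). Both again held a SOX word and, to its right, a CDX word.
Rbfox3 (chr11:118695310-118695410): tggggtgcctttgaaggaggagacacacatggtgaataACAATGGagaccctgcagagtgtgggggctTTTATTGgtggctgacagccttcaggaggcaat
Gtf3a (chr5:146920194-146920294): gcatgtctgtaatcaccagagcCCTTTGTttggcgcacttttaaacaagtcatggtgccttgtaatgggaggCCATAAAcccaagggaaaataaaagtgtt

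The best-ranked CdxKO-only sites without any peak in the full WT lists are shown for contrast. None of these 5 windows held a CDX or a SOX word. Over all 59 such sites, however, 17 (28.8%) had a SOX word and 4 (6.78%) a CDX word within 100 bp of the summit.
Sorcs1 (chr19:49676033-49676133): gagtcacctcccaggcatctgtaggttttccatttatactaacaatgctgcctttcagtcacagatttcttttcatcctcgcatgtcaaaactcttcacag
Reep3 (chr10:67083981-67084081): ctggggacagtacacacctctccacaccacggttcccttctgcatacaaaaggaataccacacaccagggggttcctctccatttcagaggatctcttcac
Rpia (chr6:69965978-69966078): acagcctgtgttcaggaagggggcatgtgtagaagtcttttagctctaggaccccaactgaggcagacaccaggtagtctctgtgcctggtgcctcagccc
Tpd52 (chr3:9008719-9008819): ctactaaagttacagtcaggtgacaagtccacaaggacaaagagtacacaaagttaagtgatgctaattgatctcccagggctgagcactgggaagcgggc
Tfg, in Abi3bp (chr16:56612699-56612799): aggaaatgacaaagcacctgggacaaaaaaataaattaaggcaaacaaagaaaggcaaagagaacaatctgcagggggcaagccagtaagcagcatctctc

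The best-ranked CdxKO-only site of all, which did have a peak in 1 full WT list, held an OCT-SOX composite (TTGTNATGC, in capitals here), the adjoining sites of a SOX and a POU factor. The shared sites are represented by the best-ranked pair, of which Med13l had adjoining SOX words.
Msantd4, in Gria4 (chr9:4460248-4460348): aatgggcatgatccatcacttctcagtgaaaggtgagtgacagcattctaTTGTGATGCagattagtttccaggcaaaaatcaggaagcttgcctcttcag
5530401A14Rik, in Asic2 (chr11:81613117-81613217): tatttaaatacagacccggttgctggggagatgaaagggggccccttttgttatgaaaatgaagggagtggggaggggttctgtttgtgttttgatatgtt
Med13l (chr5:119055612-119055712): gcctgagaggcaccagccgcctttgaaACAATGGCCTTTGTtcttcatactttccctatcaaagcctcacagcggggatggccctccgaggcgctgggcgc

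Over the whole sets, 28 of the 48 WT-only sites (58.3%, 95% Wilson interval 44.3 to 71.2) had a CDX word within 100 bp of the summit. The figure was 47 of 790 (5.95%, 4.5 to 7.82) for CdxKO-only and 158 of 1686 (9.37%, 8.07 to 10.9) for shared sites, beside 14.1% of all merged regions and 19.7% of windows of 201 bp across the genome. SOX words were in 22.9% of WT-only (13.3 to 36.5), in 29.4% of CdxKO-only (26.3 to 32.6) and 36.4% of shared sites (34.2 to 38.7), against 16.5% of all regions. The OCT-SOX composite was in 6.84% of CdxKO-only and in 8.48% of shared sites, beside 1.75% of all regions. It was in 0 of 48 WT-only sites, where 3 counts, the limit that a count of 0 allows, would be 6.25%. AP-1 words (TGANTCA) were in 1 WT-only site, in 11.4% of CdxKO-only and in 6.17% of shared sites, beside 7.15% of all regions. Intervals cover counting error only, and sites of 1 genome are not replicates of a condition.

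**Figure D1:**
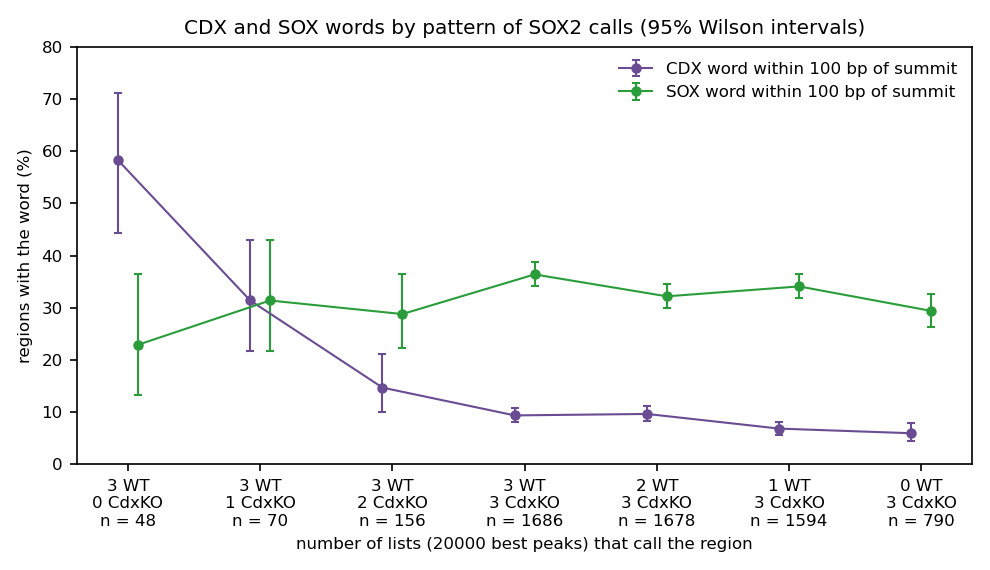
Share of SOX2 regions (%) with a CDX word (purple) or a SOX word (green) within 100 bp of the summit, by the number of WT and CdxKO lists of 20000 best peaks that called the region, with 95% Wilson intervals. The CDX share falls from 58.3% at regions called by 3 WT and 0 CdxKO lists through 31.4% and 14.7% to 9.37% at regions called by all 6, while the SOX share stays between 22.9% and 36.4%.

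The CDX share was lower where more CdxKO lists called a region of all WT lists. Regions called by all WT lists and 1 CdxKO list had it in 31.4% of 70 and those called by all WT lists and 2 CdxKO lists in 14.7% of 156. Regions missing from 1, 2 and 3 WT lists but called by all CdxKO lists had it in 9.65%, 6.84% and 5.95%, the first of these slightly above the 9.37% of shared sites. Regions called by 2 lists of 1 genotype and none of the other had it in 25.7% of 645 (WT) and 7.72% of 2811 (CdxKO). The contrast depended on how the lists were taken. In the full lists 2299 regions were WT-only (0.14% of 1641770), 873 CdxKO-only (0.0532%) and 6796 in all 6 lists (0.414%), and the CDX word was in 18.2%, 8.82% and 9.45% of them. The WT-only share of the full lists was thus near the 17.0% ± 0.519 (SD, n = 3 libraries) of windows moved by 1000 bp from the best WT summits.

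The counts of chosen sites moved with single libraries. Without WT replicate 1, 2 or 3 the WT-only sites numbered 279, 364 and 152, with the CDX word in 33.3%, 33.2% and 23.7%, and without CdxKO replicate 2 they numbered 82. The CdxKO-only sites numbered 1972 without WT replicate 3, and 1663, 1586 and 1952 without CdxKO replicates 1, 2 and 3, with the CDX word in 5.48% to 7.25% over all 6 omissions.

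Across all 20000 best summits of each library, WT summits had the CDX word more often and the SOX word less often than CdxKO summits. The CDX word was within 100 bp of 16%, 14.8% and 15.2% of WT summits and of 10.4%, 9.54% and 11.1% of CdxKO summits. The SOX word was near 15.3%, 14.9% and 21% of WT and 25%, 26.5% and 22.9% of CdxKO summits. The groups did not overlap in either, and the differences were 5 and −7.69 percentage points (exact two-sided permutation test, p = 0.1 for both, the smallest p that 20 assignments allow, adjusted p = 0.167 over 15 motifs). In full lists they were 2.71 and −4.36, and within 50 bp of the summit the CDX difference was 2.96, each with groups apart (exact p = 0.1). Windows moved by 1000 bp had the CDX word in 17% (WT) and 16.1% (CdxKO), so that both groups lay below their surroundings. For the SOX word the moved windows gave 7.29% and 7.15%.

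Of the other 13 motifs, 7 did not overlap between the groups. The POU octamer (ATGCAAAT) was near 3.12% ± 0.641 of WT and 4.23% ± 0.158 of CdxKO summits (mean ± SD, n = 3) and the OCT-SOX composite near 2.22% ± 0.55 and 3.56% ± 0.229. SP/KLF (GGGCGGG), CTCF, TEAD and AP-1 words were likewise more frequent in CdxKO, AP-1 with 6.29% ± 0.0687 against 7.88% ± 0.462. PBX-HOX words (TGATTNAT), the joint sites of HOX factors and their PBX partners, were more frequent in WT, with 2.93% ± 0.185 against 2.59% ± 0.124. Each of these gave exact permutation p = 0.1 and adjusted p = 0.167. For PBX-HOX words both groups lay below the moved windows (3.17% in WT and 3.12% in CdxKO). Their difference of 0.34 percentage points was 0.259 in full lists (exact permutation p = 0.3) and 0.42 with the 5000 best peaks (exact permutation p = 0.2). With the 5000 best peaks the POU octamer and CTCF groups overlapped too (exact permutation p = 0.3 and 0.2). TCF/LEF words (CTTTGAA or CTTTGAT) overlapped between the groups, at 10.6% to 12.7% in WT and 12.7% to 13.1% in CdxKO.

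**Figure D2:**
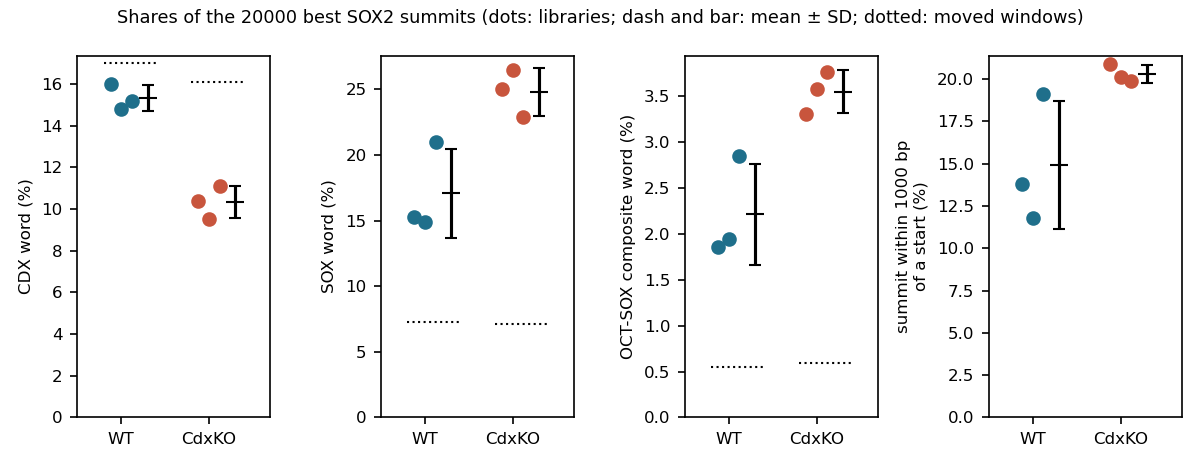
Share (%) of the 20000 best SOX2 summits of each library with a CDX word, a SOX word or an OCT-SOX composite within 100 bp, and share within 1000 bp of a transcription start. Dots are libraries, dashes with bars the mean ± SD of 3 and dotted lines, in the motif panels, the mean of windows moved by 1000 bp. No WT dot reaches into the CdxKO range in any of the panels.

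The places of the summits differed in the same libraries. Promoters, taken as 1000 bp around an annotated transcription start, held 13.8%, 11.8% and 19.1% of WT and 20.9%, 20.1% and 19.9% of CdxKO summits, and introns 39.5%, 40.1% and 37.4% against 35.1%, 36% and 35.8%. The median distance to a start was 12.8, 13.4 and 9.38 kb in WT and 8.52, 8.95 and 8.97 kb in CdxKO. The base composition of the windows moved with this, at 47.1% ± 1.23 G+C in WT and 49.4% ± 0.619 in CdxKO, and its part in the motif shares was not tested. These measures did not overlap between groups (exact permutation p = 0.1, adjusted p = 0.14 over 7 measures), and WT replicate 3 lay nearest to CdxKO in each. With the 5000 best peaks the promoter difference went from −5.42 to −1.43 percentage points (exact p = 0.4), the intron difference from 3.35 to 1.95 (exact p = 0.2) and the distance difference from 3.04 to 0.604 kb (exact p = 0.6). In full lists the intron difference was 1.75 (exact p = 0.1). Intergenic and repeat-masked shares overlapped.

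The places of the chosen sites are given without a test of their differences. Among the 48 WT-only sites 23 were intronic, 16 intergenic, 7 at promoters and 2 in exons, or 47.9%, 33.3%, 14.6% and 4.17%, beside 39%, 42.6%, 14.9% and 3.47% of all regions. The 16 of them with no peak in any full CdxKO list included no promoter, with 9 in introns and 7 between genes, a median of 20.7 kb from the nearest start. CdxKO-only sites were 45.9% intergenic, 34.2% intronic and 17.7% at promoters, and shared sites 23% at promoters. Summits in repeat-masked sequence made up 18.8% of WT-only, 25.1% of CdxKO-only and 18.2% of shared sites, beside 22.3% of all regions.

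The best-ranked WT-only site lay in an intron of Rbfox3, the gene of the neuronal splicing factor NeuN (chr11:118695065-118695522). Its fold enrichment, which sets the pile of reads at a peak's summit against the level estimated nearby, was 28.2, 15.6 and 70.4 in the WT lists. CdxKO replicates 2 and 3 listed peaks of 4.93 and 5.47 there, outside their best 20000, and replicate 1 listed none. Next came a site in an intron shared by Fank1 and Dhx32 (18.2, 11.4 and 31.8 in WT, 5.82 and 3.78 in CdxKO replicates 2 and 3). The third, in an intron of Limk2, the kinase that phosphorylates cofilin, had 16, 12.6 and 16.1 in WT and no peak in any CdxKO list. All 3 sites carried both a CDX and a SOX word. Only 6 of the 48 WT-only sites (12.5%) held both words, beside 2.03% of all regions, and 15 (31.2%) held neither.

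Further WT-only sites absent from every full CdxKO list lay in or near genes of varied roles. The site in Fbn1, which encodes the microfibril protein fibrillin-1, had 39.8, 7.95 and 18.1 in WT. The site 246590 bp upstream of Irx1, an Iroquois homeodomain gene of patterning, had 21.7, 7.97 and 14.3. Others were in introns of Mitf, the regulator of melanocyte fate (8.91, 9.03 and 17.6), of Vgll1, a cofactor of TEAD factors (20.7, 7.44 and 16.1), and of Zfp704, Zfp608 and Tdrd3. Sites between genes were nearest to Hist1h2ae, Strap, Itga1, Samd5, 2410004P03Rik and Lmo2, and another lay in a non-coding transcript nearest to Fbxw17. Of the 16 sites, 11 had a CDX word and 3 a SOX word. Over all 48 sites the WT lists ranged from 8.9 to 39.8, from 5.79 to 15.6 and from 6.04 to 70.4. No CdxKO peak at them exceeded 6.29, a gap that the choice of sites from these same lists favours.

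A few WT-only sites lay at or near genes of axial patterning. One had its summit 652 bp downstream of the start of Hoxb9, a gene of the posterior trunk (chr11:96271728-96272745), with 24.7, 7.11 and 10.9 in WT, 5.89 and 5.87 in CdxKO replicates 1 and 2 and no peak in replicate 3. Another lay in Hoxa3 of the anterior Hoxa genes, with 12, 6.91 and 8.52 in WT and a single CdxKO peak of 4.34. A site 19601 bp downstream of the start of Fgf8, a growth factor of the caudal epiblast, had 13.8, 8.41 and 8.27 against 1 CdxKO peak of 2.35. All 3 had a CDX word. A site in Ptk7, a receptor of planar polarity, had 10.9, 10.6 and 6.04 in WT and 5.53, 4.05 and 4.93 in CdxKO outside the best 20000, so that all full lists held it.

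Many chosen sites were listed in the other genotype at a lower rank. Of the 48 WT-only sites, 4 had peaks in all 3 full CdxKO lists, 13 in 2, 15 in 1 and 16 in none. The best rank that a CdxKO list gave to one of them was 20972, just outside, and 6 sites had a CdxKO rank of 25000 or better. The lowest WT rank among them was 19746, just inside. Of the 790 CdxKO-only sites, 211 had peaks in all 3 full WT lists, 315 in 2, 205 in 1 and 59 in none, with 20009 the best WT rank and 89 sites at 25000 or better.

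**Figure D3:**
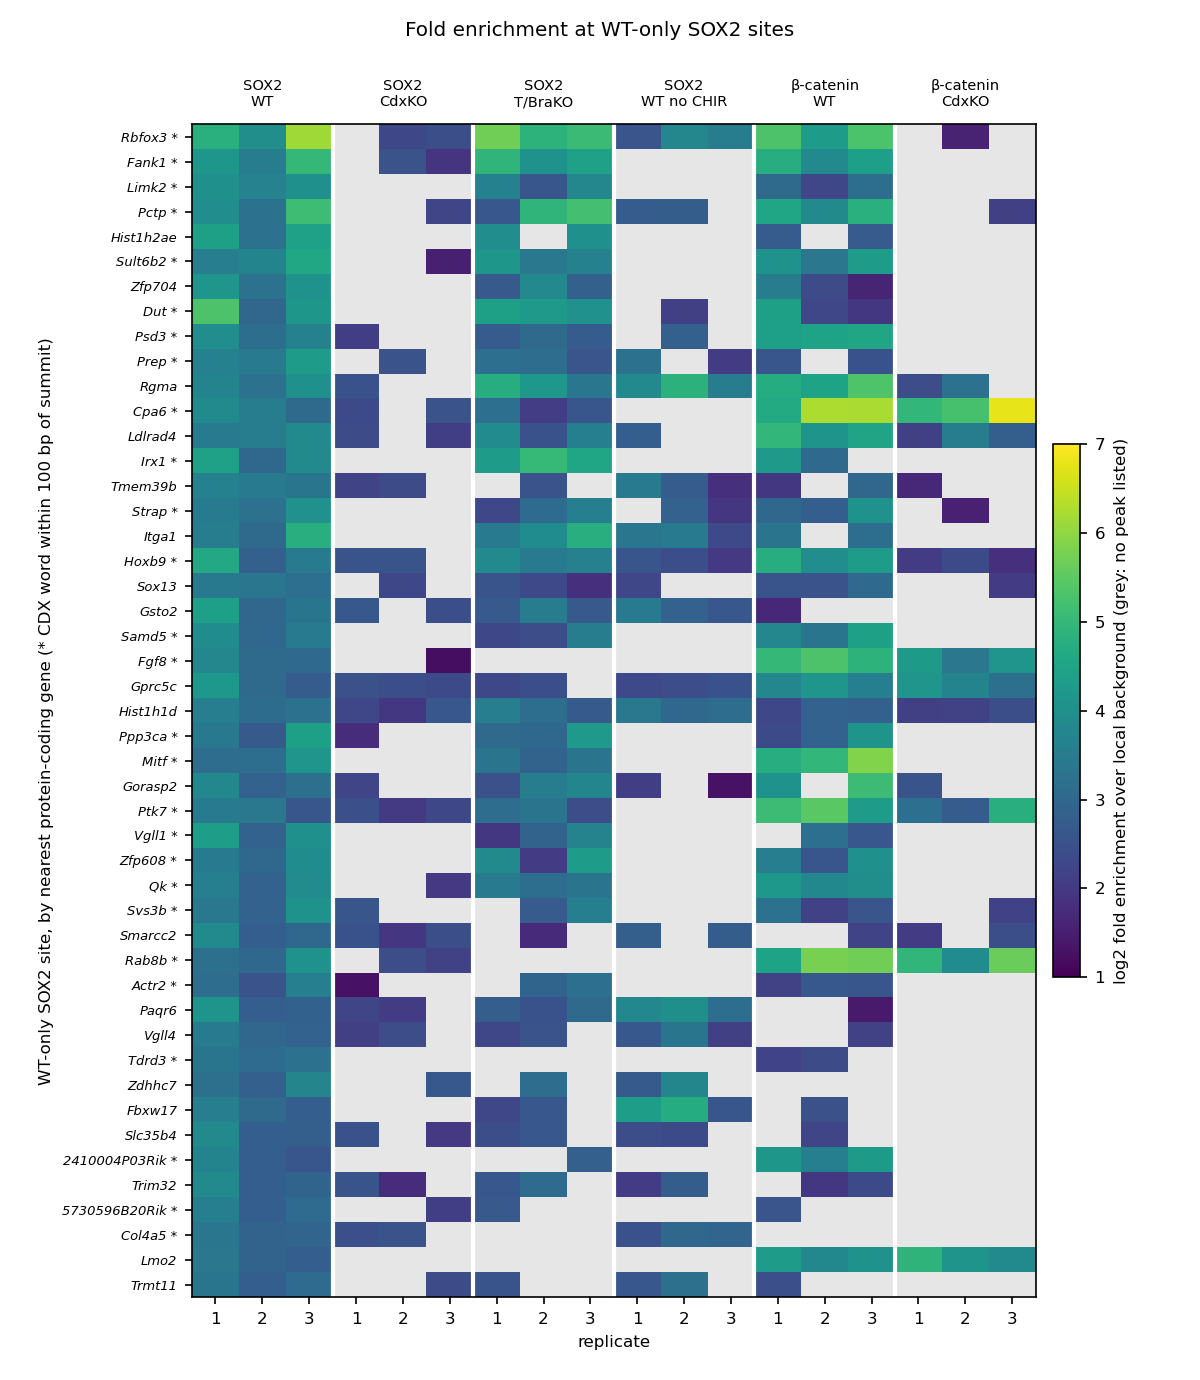
Log2 fold enrichment at 47 of the 48 WT-only sites (rows, by nearest protein-coding gene and in order of mean WT rank) in SOX2 and β-catenin libraries (columns, 3 replicates a group). Grey cells have no listed peak, and stars mark a CDX word. The CdxKO columns of SOX2 and β-catenin are mostly grey, those of T/BraKO SOX2 mostly filled, and 22 of 47 rows are grey in all SOX2 lists without CHIR.

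Among CdxKO-only sites the best ranked lay in an intron of Gria4, an AMPA glutamate receptor subunit (chr9:4459994-4460457), with 22.1, 18.3 and 25.2 in the CdxKO lists and 6.74 in WT replicate 1 alone. A site in an intron of a non-coding transcript, whose nearest protein-coding start was that of Nrg3, a neuregulin gene, 1151701 bp away, had 19.2, 19.2 and 20.6 in CdxKO and 4.36, 6.91 and 4.78 in WT. A site 10010 bp upstream of Cdkn1a, the cell cycle inhibitor p21, had 26.1, 10.7 and 18.8 against 5.94, 6.37 and 5.35. The Pdgfa promoter, of a platelet-derived growth factor, had 12.9, 16 and 17.4 against 6.06, 5.76 and 4.78. In each of these the lowest CdxKO value was above the highest WT value. The sites were chosen from these same lists, so the rule favours such a gap and it is no test. Others of the first 12 were nearest to Fancl, Man1a, Adgrv1, Gnas, Enc1, Sult1c2, Arid5b and Gm13420, 4 of them with a SOX word and none with a CDX word.

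The first 10 CdxKO-only sites with no peak in any full WT list had 6.53 to 18 in the CdxKO lists. They lay nearest to Sorcs1, Reep3, Rpia, Tpd52, Tfg, Arhgef3, Msx1, Tnk2, Id2 and Git1. Msx1 and Id2 are targets of BMP signalling. The Msx1 site, 95982 bp upstream, had 8.47, 12.6 and 8.81, and the Id2 site, in an intron of Kidins220, had 17.4, 16.5 and 6.82. Of these 10 sites 2 had a CDX word, those nearest Id2 and Git1.

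Few CdxKO-only sites lay within 10000 bp of genes of neural identity or pluripotency. Genes of the neural list (46 genes) held 7 of the 790, at Nfib, En2, Hes5, Otx2, Meis1, Sox21 and Pou3f1, and those of the pluripotency list (24 genes) held 3, at Jarid2, Tet1 and Sall4. These are 0.886% and 0.38% of CdxKO-only sites, beside 0.556% and 0.176% of all merged regions. At Hes5, an effector of Notch signalling, the promoter had 13.7, 11.2 and 11.2 in CdxKO and 5.45, 3.89 and 5.92 in WT. At Otx2, the forebrain and epiblast homeobox gene, the site had 10, 9.71 and 5.24 against 4.36 and 5.44 in WT replicates 1 and 2. At Nfib, a nuclear factor I gene, it had 13.1, 14.1 and 15.1 against 5.31 and 5.22 in WT replicates 2 and 3. The groups overlapped at some of these, as at Pou3f1, where WT replicate 1 had 9.75 and the CdxKO lists 7.4, 7.67 and 6.71. The WNT list held CdxKO-only sites at Lgr4 and Tcf7l1 and the caudal list 1, at Fgf17, which are 0.253% and 0.127% of these sites beside 0.183% and 0.219% of all regions. WT-only sites in the same lists were 1 each, at Rbfox3 (neural), at Hoxb9 (trunk and posterior Hox) and at Hoxa3 (anterior Hox). Each single site is 2.08% of WT-only sites, beside 0.556% (neural), 0.131% (posterior Hox) and 0.136% (anterior Hox) of all regions. Shared sites numbered 19 in the caudal list (1.13% of shared sites), 11 in the neural list (0.652%) and 6 in the pluripotency list (0.356%).

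Counts of peaks near these lists overlapped between the genotypes, apart from those of the WNT list. The trunk and posterior Hox genes had 23, 25 and 44 peaks among the WT best 20000 and 34, 23 and 27 among the CdxKO ones, and the anterior Hox genes 25, 30 and 56 against 33, 29 and 37 (exact permutation p = 0.9 for both, adjusted p = 1 over 9 lists). In both lists WT replicate 3 was highest, and without it the differences turned from 4 and 2.67 peaks more in WT to −5.5 and −4 for the anterior and posterior genes. WNT feedback and TCF genes had 40, 44 and 49 in WT and 63, 66 and 62 in CdxKO, the only list whose groups did not overlap (exact permutation p = 0.1, adjusted p = 0.45). Caudal epiblast and streak genes had 62 ± 16.5 against 81.3 ± 4.73 (SD, n = 3), pluripotency genes 40.7 ± 8.96 against 54.7 ± 5.03 and neural genes 117 ± 19.1 against 136 ± 15 (adjusted p = 0.45 each). Nodal and mesendoderm genes had 24.7 ± 9.07 against 24 ± 3.61.

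The loci of the deleted genes had SOX2 peaks in both genotypes, which measures SOX2 and not the gene products and so does not check the mutation. Within 10000 bp of Cdx2 (chr5:147300805-147307270) 4, 5 and 4 of the best WT peaks and 5, 5 and 5 of the best CdxKO peaks lay. Cdx1 had 2, 1 and 2 against 2, 2 and 1, and Cdx4 1, 0 and 2 against 0, 1 and 1. Sox2 itself had 2, 4 and 1 in WT and 8, 6 and 2 in CdxKO. T had 2, 4 and 2 against 4, 3 and 2, Nodal 2, 2 and 3 against 2, 2 and 4, and Klf2 2, 1 and 1 against 1, 4 and 4. Hoxb8 and Hoxb9, whose extended intervals overlap, had 4, 7 and 8 and 4, 8 and 7 in WT against 3, 5 and 4 and 4, 5 and 3 in CdxKO. Meis3 had 1, 2 and 1 against 0, 1 and 0, Fgf5 0, 1 and 0 against 1, 1 and 2, and Tbx6 0, 0 and 0 against 1, 0 and 1. The groups overlapped or met at each of these genes.

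Where SOX2 had a peak in all 6 full lists, the height of the peak could be compared. This was so for 6206 of the 82343 regions, and by construction it leaves out sites lost altogether. Fold enrichment was higher in WT at 9 regions (0.145% of those tested) and higher in CdxKO at 1 (0.0161%), by limma with adjusted p below 0.05 on quantile-normalised log2 values. At an unadjusted p below 0.05 the counts were 243 and 234. The 3 values of each group lay wholly apart at 369 regions higher in WT (5.95%) and 418 higher in CdxKO (6.74%). At any region 1 of the 20 assignments of libraries to groups gives such a gap in a given direction, so these shares alone do not mark regions as different.

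The largest difference lay between genes near Gtf3a, which encodes transcription factor IIIA (chr5:146919700-146921185), 381 kb from Cdx2. Its fold enrichment was 61.5, 16.4 and 62.2 in WT and 4.79, 6.31 and 5.51 in CdxKO, so that the groups were far apart. The log2 difference was 3.15 (SE 0.44, limma adjusted p = 3.07e-05), and it passed the threshold in each of 6 fits that left out a library, with 2.83 to 3.62. β-catenin at the same region had 61, 28 and 94.6 in WT and 4.03, 5.6 and 9.4 in CdxKO. SOX2 there had 27.6, 38.5 and 49.1 in T/BraKO cells and 5.64, 4.25 and 4.66 in WT cells without CHIR.

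Of the other regions, the 8 given by the rule for named genes passed the threshold in 1 or 2 of those 6 fits each. A region near Mfap1b had 47.1, 34 and 46.6 in WT and 10.4, 25.3 and 5.46 in CdxKO (log2 difference 2.18, SE 0.45, limma adjusted p = 0.032), and one 588954 bp from Vwc2, a BMP antagonist, had 31.6, 14 and 41.8 against 7.37, 6.95 and 10.7 (1.99, SE 0.43, limma adjusted p = 0.041). One near Dppa3, which encodes the early embryo and germ cell protein Stella, had 11.9, 11.3 and 27.5 against 3.08, 4.85 and 6.31 (1.99, SE 0.44, limma adjusted p = 0.041). Regions near Tmem132b, Fbxw21, Rgma and Fancm followed, with log2 differences of 1.89 to 1.97. The ninth region, 57255 bp from Wls, the carrier that WNT proteins need for secretion, had 30.4, 13.8 and 26.5 against 8.84, 6.39 and 7.52 (1.87, SE 0.42, limma adjusted p = 0.041). The single region higher in CdxKO, in an intron near Smgc, had 10.9, 2.59 and 10.1 in WT and 34.8, 41.7 and 29.5 in CdxKO (−2.23, SE 0.46, limma adjusted p = 0.032), and SOX2 there had 40.7, 46.5 and 24.2 in WT cells without CHIR. Without WT replicates 1, 2 and 3 the calls numbered 9, 4 and 1, and without CdxKO replicates 1, 2 and 3 they numbered 1, 4 and 1, and only Gtf3a passed in each of these fits.

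Regions with a CDX word leaned towards WT in this comparison also. The median log2 difference was 0.16 (quartiles −0.18 and 0.54) at the 593 regions with a CDX word and −0.02 (−0.35 and 0.29) at the 5613 without, beside −0.01 over all. The groups lay wholly apart with WT higher at 12.1% of regions with the word and with CdxKO higher at 4.38%, against the 5.95% and 6.74% of all regions. Of the 9 regions called higher in WT, 5 had the word. At the 2039 regions with a SOX word the median was −0.05. No region within a listed gene passed the threshold, and the medians were 0.3 at 15 anterior Hox regions, −0.06 at 13 posterior Hox regions and 0.02 at 43 regions of caudal genes. The groups lay wholly apart with WT higher at 3 posterior Hox regions (23.1%) and with CdxKO higher at 0. For anterior Hox these were 2 (13.3%) and 1 (6.67%), and for caudal genes 1 (2.33%) each way. These sets are small and were not tested. Without normalisation the median over all regions was −0.272, and limma called 1 region in each direction.

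**Figure D4:**
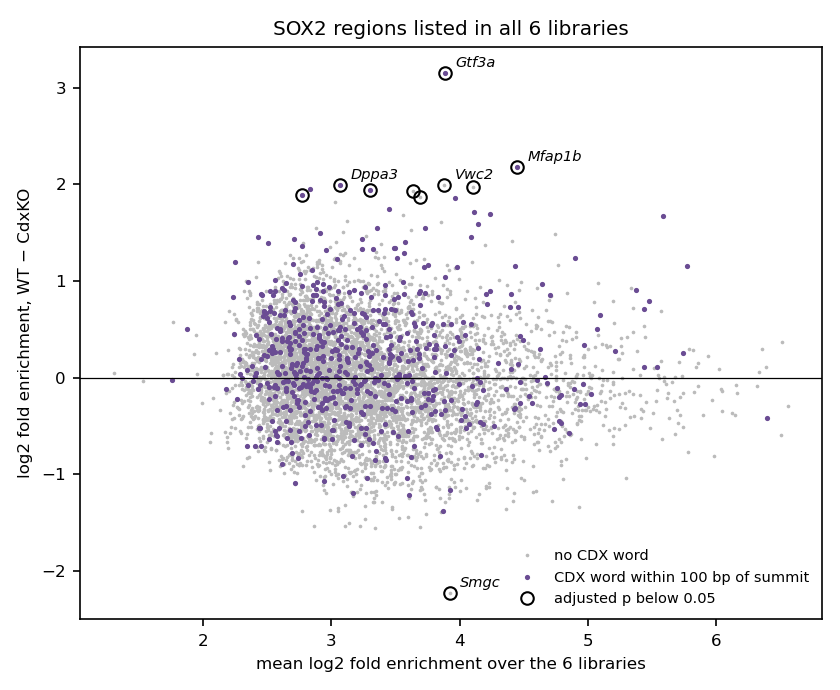
Log2 difference in SOX2 fold enrichment (WT minus CdxKO, quantile-normalised) against the mean log2 fold enrichment of 6 libraries, for 6206 regions with a peak in every full list. Regions with a CDX word are purple, and circles mark limma adjusted p below 0.05. The Gtf3a region stands alone at 3.15, and only Smgc is circled below 0.

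The WNT effector β-catenin was tested at the sites, since the choice of sites did not use its libraries. The β-catenin and LEF1 libraries carry the same experiment code as the SOX2 ones. The labels do not say whether they came from the same cultures, so the test may not be independent of the choice. A β-catenin peak lay in 38, 35 and 39 of the 48 WT-only sites in the WT lists and in 13, 12 and 13 in the CdxKO lists. The groups were far apart, by 24.7 sites (exact two-sided permutation test, p = 0.1, the smallest that 3 against 3 allow, adjusted p = 0.2 over 4 tests). Over all 82343 regions the same lists held 13.5%, 14.4% and 25.2% (WT) and 15.1%, 12.4% and 15.5% (CdxKO). LEF1 peaks lay in 28, 19 and 20 WT-only sites in WT and in 17, 16 and 10 in CdxKO, a difference of 8 (exact permutation p = 0.1, adjusted p = 0.2), which was 5.17 without WT replicate 1 (exact p = 0.2).

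At the 790 CdxKO-only sites the genotypes overlapped in both factors when full lists were used. β-catenin peaks lay in 305, 296 and 412 in WT and in 385, 362 and 351 in CdxKO (exact permutation p = 0.5, adjusted p = 0.5), and LEF1 peaks in 305, 275 and 125 against 319, 343 and 282 (p = 0.2, adjusted p = 0.267, exact). Among the 20000 best peaks of each LEF1 list, 64, 41 and 43 sites had one in WT and 79, 81 and 83 in CdxKO, which did not overlap (exact permutation p = 0.1). The β-catenin difference of −28.3 sites became −12, −7.5 and −65.5 without WT replicates 1, 2 and 3 and −18.8 without CdxKO replicate 1, and the LEF1 difference of −79.7 became −24.7 without WT replicate 3. The groups did not overlap without WT β-catenin replicate 3 or without WT LEF1 replicate 1 (−115). The difference between the WT-only and CdxKO-only sites was itself not tested. At shared sites β-catenin peaks lay in 78.1% to 86.9% in WT and in 75.7% to 79.2% in CdxKO.

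Single sites show the range. At the Rbfox3 site β-catenin had 39.9, 20 and 39.7 in WT and 2.96 in CdxKO replicate 2 alone, and at the Fank1 site 26.6, 14.7 and 20.8 and no CdxKO peak. At the site in Cpa6, by contrast, a carboxypeptidase gene, it had 25.6, 76.9 and 75.6 in WT and 31.6, 38.3 and 109 in CdxKO. The Hoxb9, Fgf8 and Ptk7 sites also had a β-catenin peak in all 3 WT and all 3 CdxKO lists, but with differing heights. The Hoxb9 site had 26.8, 15.3 and 19.7 in WT against 4.22, 5.12 and 3.58 in CdxKO. The Fgf8 site had 31.8, 40.3 and 29.5 against 19.2, 10.4 and 17.5. At both the groups lay apart, and at Ptk7 they overlapped (34.6, 43.9 and 19.6 against 9.16, 6.71 and 27.4). The Hoxa3 site had a β-catenin peak in 1 WT list and in no CdxKO list. Counting sites, 13 of 48 had β-catenin peaks in all 3 WT and in no CdxKO list, of which 12 were among the 28 with a CDX word and 1 among the 20 without.

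SOX2 of the other groups was counted at the same sites without a test. In T/BraKO cells 37, 39 and 33 of the 48 WT-only sites had a SOX2 peak, beside 25.6%, 25.1% and 16% of all regions, and the third of these lists is the shortest of them. In WT cells without CHIR it was 22, 20 and 17, beside 27.2%, 26.3% and 26.8% of all regions. A SOX2 peak in all 3 T/BraKO lists and in no list without CHIR was found at 13 sites, of which 12 had a CDX word. Of the 790 CdxKO-only sites, 606, 665 and 492 had a peak in T/BraKO cells, at 62.3% to 84.2% beside 68.8% to 81.2% of WT-only sites. In WT cells without CHIR 704, 679 and 666 of them had one, at 84.3% to 89.1% beside 35.4% to 45.8% of WT-only sites. Shared sites were higher than either set, at 98.1% to 98.9% in T/BraKO cells and 97.7% to 97.8% in WT cells without CHIR.

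**Figure D5:**
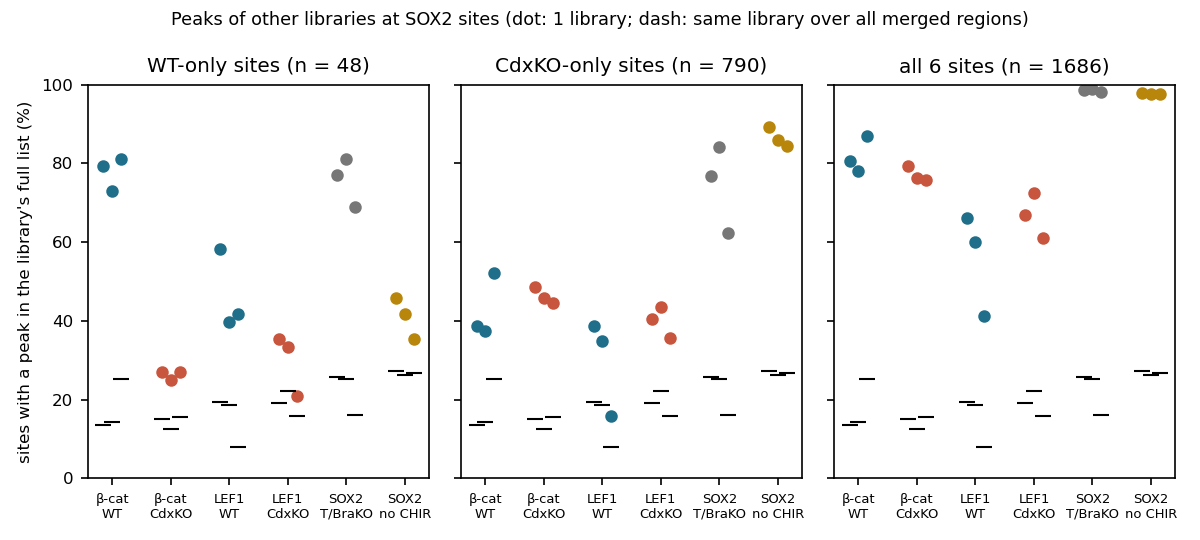
Share (%) of WT-only, CdxKO-only and shared SOX2 sites with a peak in the full list of each β-catenin, LEF1 and other SOX2 library (dots), with the share over all 82343 regions as dashes. At WT-only sites the WT β-catenin dots lie at 72.9% to 81.2% and the CdxKO ones at 25% to 27.1%.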

How the data were processed

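SOX2 ChIP-seq libraries of WT and CdxKO cells with CHIR, 3 each, were analysed from peak lists that the authors made separately for each library with MACS2 on mm10. The lists hold, as deposited by the authors, the fold enrichment (a ratio) at the summit and −log10 p- and q-values. The deposited summit offsets gave positions. Which input served which library is not given in the sources used here, and read depth is unknown. Peaks were ranked by −log10 q, the 20000 best of each list were merged where they overlapped by at least 1 bp, and motif words were searched within 100 bp of summits in GRCm38. Genes came from GENCODE M21. Groups were compared by exact two-sided permutation tests with Benjamini-Hochberg adjustment, and log2 fold enrichment at regions in all 6 full lists by limma 3.58.1 (R 4.3.3) after quantile normalisation, checked on simulated data. Other steps used Python 3.11.15, pandas 2.3.3 and scipy 1.17.1.

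Named sites were the 12 best by mean rank in each set, every WT-only and the 10 best CdxKO-only sites absent from the other genotype's full lists, those in list genes extended by 10000 bp, and the 8 largest limma differences in each direction. Fgf8, Ptk7, Wls and the Rbfox3, Gtf3a and Msantd4 windows were added after their values were seen. Members and lists were chosen with earlier results of these data known. Alternatives took 5000 or 50000 best peaks, full lists, ranking by fold enrichment, other scalings and each library left out. A WT-only site is counted in the totals but not reported here.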

Additional observations from a re-analysis of the deposited data

How the results depend on the processing

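With full lists, WT-only regions numbered 2299 and regions in all lists 6796, with 5000 best peaks CdxKO-only 226 and all-list 943, with 50000 best WT-only 74 and CdxKO-only 1320, and under absence from the other genotype's full lists 16 and 59. Leaving out 1 library gave 65 to 364 WT-only and 990 to 1972 CdxKO-only regions. The CDX share, recomputed as an alternative chosen after seeing the data, was 18.2% (WT-only) and 8.82% (CdxKO-only) in full lists, and 23.7% to 50.8% of WT-only sites with 1 library left out. limma called 2 regions without normalisation, 1 to 9 with a library left out and 14 with the replicate block, though same-numbered samples did not deviate together (r = −0.00738, −0.0289 and 0.0391).

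Some small differences (WT minus CdxKO) turned: with 5000 best peaks T-box 0.0267, homeodomain −0.0333, intergenic −1.4 and repeat-masked −0.887 percentage points, FOXH1 0.0764 in full lists and 0.0183 ranked by fold. In full lists peaks near caudal, pluripotency, neural and WNT genes were 198, 222, 714 and 288 more in WT, whose full lists are longer. Leaving out 1 library gave FOXH1 −0.106 to 0.0792, homeodomain −0.0933 to 0.531, anterior Hox −5.5 to 10, posterior Hox −4 to 6.5 and nodal −3.5 to 5.5. The cause was not tested. With 3 libraries a group no exact test could fall below p = 0.1, and depth could not be weighed.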
